A study of Vitis vinifera with 74 samples.

Results

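Of the 42413 grapevine genes counted in leaves and buds of the cultivar Cabernet Franc, 39 were well represented in leaves before treatment and had almost no tags in buds. They were chosen from the measured values, in CPM (a gene's count scaled to a common column total). A member had a mean of at least 10 CPM over the 8 pre-treatment leaf libraries and a mean under 0.2 CPM over the 34 bud columns. In addition, the mean of its 4 h control leaves lay within 2-fold of the pre-treatment mean, with 1 CPM added to both. Of the 8475 genes that met both leaf conditions, the 39 members were 0.460%. The remaining 8436 had bud means of 0.2 to 1 CPM in 92 genes, 1 to 10 CPM in 1219 genes and 10 CPM or more in 7125 genes. A further 12 genes met the level conditions and failed the one on the 4 h controls, 5 of them higher and 7 lower at 4 h.

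Abscisic acid (ABA) is a plant hormone that closes stomata and slows water loss in leaves, and that in buds is associated with dormancy and with resistance to cold. Mature leaves run photosynthesis and the metabolism around it, while a woolly bud is an overwintered bud that has begun to swell and still holds folded leaf primordia. The tissues of a plant share most of their expressed genes, and the few that are read in one and hardly at all in the other are usually tied to what that organ does or to its developmental age. The roles of the 39 members are not given here: the deposited tables pair identifiers with no gene names, and none of the identifiers occurs in the reference table at hand. For the same reason the tissue labels could not be checked against marker genes, and no sequences are shown.

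The leaf experiment used potted greenhouse vines, 2 years old and on their own roots. At noon their leaves were wetted to runoff with S-ABA at 500 mg per litre (1.9 mM) plus a surfactant, or as a control with water plus the surfactant alone. There were 4 libraries per treatment at 2, 4, 24 and 48 h, and 8 libraries from before the spray. The bud experiment used single-node cuttings of field-grown vines, cut in late winter after chilling and forced in a growth room to the woolly stage. They received S-ABA at 1322 mg per litre (5 mM) or plain water, and were represented by 3 count columns per treatment at 6, 12, 24, 48 and 72 h (4 columns for the 48 h control) and 3 columns before treatment. Tissue, vines, year, dose and read length (85 bp in leaves, 75 bp in buds) all differ between the experiments, so what separates leaf from bud values cannot be told apart by the design. In such whole-organ samples, fewer cells of a type and less RNA per cell cannot be told apart either.

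Leaf libraries held 1321798 to 2414909 counts each, and bud columns 1526985 to 2616086. Bud columns of a group differed from each other by about sampling noise (a chi-square of 1.02 to 1.17 per degree of freedom, and 1.34 to 2.00 in the 48 h controls), whereas leaf libraries of a group gave 3.85 to 25.4. Each bud group was therefore summed to 1 sample, which gave 11 bud libraries of 4923240 to 7698363 counts. By the codes in the labels, 4 leaf libraries ran on a second flow cell. They are replicate 1 of the ABA leaves of 24 h, replicates 3 and 4 of the ABA leaves of 48 h and replicate 1 of the 2 h controls. The labels do not tie a library to a separate vine, so p-values here measure the spread between these libraries.

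The contrast that defined the members is described first, without a test. All 39 had tags in each of the 40 leaf libraries, with 125650 leaf counts in all, against 238 counts among the 66745600 of the bud columns. Together they averaged 1567 ± 226 CPM in pre-treatment leaves (SD, n = 8), against 3.57 CPM over all buds, a ratio of 439.5. Pre-treatment leaf means were under 20 CPM in 18 members, between 20 and 50 CPM in 14, and 50 CPM or more in 7, with a median of 21.8 CPM. The kit reads tags from the 3′ ends of transcripts, so these levels are not scaled by gene length.

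**Figure D1:**
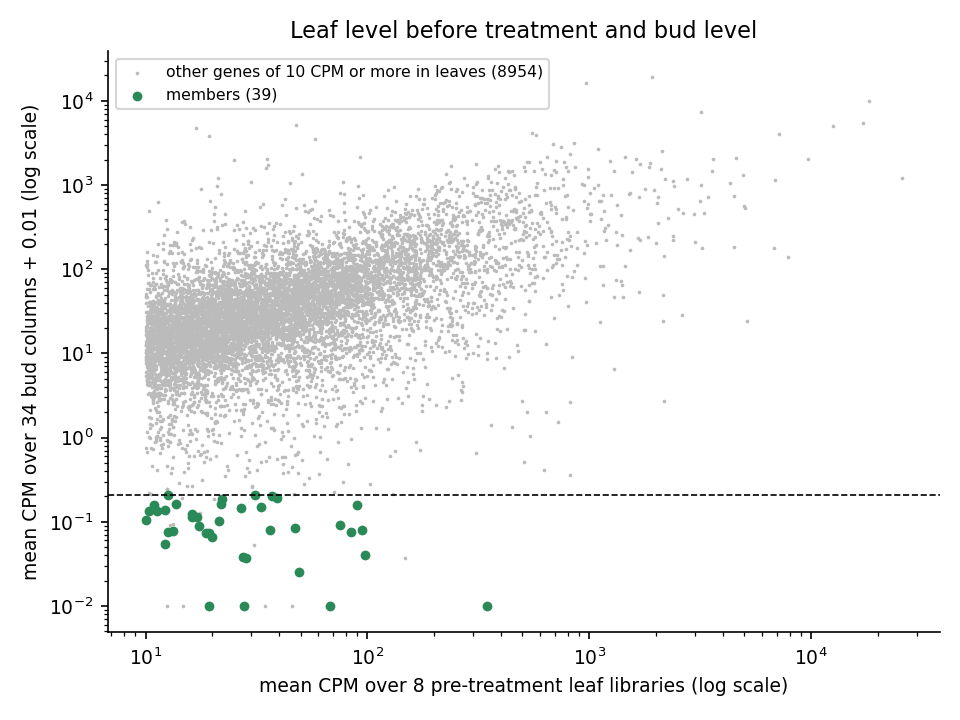
Mean CPM over the 8 pre-treatment leaf libraries (x axis, log scale) against mean CPM over the 34 bud columns plus 0.01 (y axis, log scale), 1 point per gene with at least 10 CPM in leaves. The 39 members (green) lie under the dashed line at 0.2 CPM, 4 of them at the bottom edge with no bud count, and 7125 of the other genes that met the leaf conditions (grey) are at 10 CPM or more in buds.

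Vitvi19g01014 had the highest leaf level of the members. In the 8 pre-treatment libraries its lowest, median and highest values were 274.7, 342 and 477.9 CPM, with a mean of 345 ± 64.5 CPM (SD), against no count in any of the 34 bud columns. With 3 counts over all buds as the floor (0.0449 CPM), its leaf level was at least 7683-fold higher. Vitvi19g01015, the second in level, had 76.8, 99.0 and 110.4 CPM in pre-treatment leaves as lowest, median and highest values, against 2 counts in all buds. Together these 2 genes made up 28.2% of the members' summed level before treatment.

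Of the other members, 3 also had no bud count. The bound on the leaf-to-bud ratio was at least 432-fold in the member with the lowest one. The 35 members with bud counts had leaf-to-bud ratios of 63.9 to 3226 (median 214), and the median member had 5 bud counts in all. Floors and ratios at such counts cover counting error only.

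Members near the edges of the rule were not set apart from the genes outside it. The bud mean was 0.197 CPM in the last gene inside and 0.201 CPM in the first outside. On the leaf side, the lowest pre-treatment mean inside was 10.01 CPM and the highest outside was 9.87 CPM. The 4 h control condition had its largest absolute log2 ratio inside at 0.99 and its smallest outside at 1.05. Members lay on both sides of equality there, with 17 higher and 22 lower in the 4 h controls than before treatment (median log2 ratio −0.09).

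The few bud counts were thinly spread. Of the 429 combinations of a member and a bud group, 276 held no count, and no member had more than 6 counts in a group. The summed member level in buds was 5.07 CPM before treatment, from 34 counts (exact Poisson 95% interval 3.51 to 7.08). At 6 h it was 3.66 CPM with ABA and 2.21 CPM in the control, from 18 and 16 counts. At 12 h it was 3.28 CPM with ABA (17 counts, interval 1.91 to 5.25) and 1.35 CPM in the control (7 counts, interval 0.542 to 2.78), the lowest of the 11 groups.

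At 24 h the summed bud level was 3.28 CPM with ABA and 2.53 CPM in the control. The values at 48 h were 4.16 CPM with ABA and 2.60 CPM in the control. At 72 h it was 4.66 CPM with ABA (23 counts, interval 2.95 to 6.99) and 7.11 CPM in the control (38 counts, interval 5.03 to 9.76), the highest of the 11 groups. The ABA library was thus above its control from 6 to 48 h and below it at 72 h, but the intervals of ABA and control overlapped at each of the 5 times. With 1 summed library per bud group, there is no replicate to set these differences against, and none was tested.

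In leaves before treatment the members varied more between libraries than other leaf genes did. Over the 8 pre-treatment libraries the coefficient of variation had a median of 35.5% in the members (11.6% to 87.0%), against 20.5% in the 8436 leaf genes of like steadiness that buds also hold. With the counting error of each gene taken off, the medians were 29.1% in the members and 15.8% in the others. The members were also lower in level, with a median of 21.8 CPM against 35.2 CPM, and the part of level in this difference was not tested. The same 8 libraries entered the rule for the members and for the 8436 others, so these spreads are a description without a test. The most variable member, Vitvi07g03194, had 32.8 CPM in its highest library and a median of 8.33 CPM over the 8. In 1 of the 8 libraries, 13 members had their lowest value and 6 their highest. The steadiest member was Vitvi19g01015.

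In control leaves many members were low in the afternoon of the spray and high at 48 h, though not all. The highest of the 5 control group means was the 48 h mean in 20 members, with 7 members highest at 24 h, 2 at 4 h, 6 at 2 h and 4 before treatment. The lowest was the 2 h mean in 13 members and the 4 h mean in 12, with 7 lowest before treatment, 5 at 48 h and 2 at 24 h. The ratio of highest to lowest control group mean had a median of 1.88 (1.18 to 3.34) and reached at least 2-fold in 15 members, although the rule kept the 4 h controls near the pre-treatment level. The pre-treatment and 4 h control groups ranked here entered the rule. The same counts over other leaf genes are not given here, so whether this course is particular to the members was not tested.

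Vitvi19g01014 was high before treatment and again in the 48 h controls. From its pre-treatment mean of 345 ± 64.5 CPM (SD, n = 8), controls of 2 h averaged 203.7 ± 26.1 CPM, those of 4 h 210.3 ± 50.9 CPM, those of 24 h 239.7 ± 15.2 CPM and those of 48 h 344.6 ± 26.9 CPM (SD, n = 4 each). The 2 h libraries (166.4 to 227.3 CPM) lay below all pre-treatment and all 48 h libraries. This gene was picked for its high pre-treatment level, which the rule also used, so the order is a description without a test. The share of all genes with the same order is not given here.

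The summed level of the 39 members lay between 1322 and 1799.8 CPM in every leaf group mean. In ABA leaves of 2 h it averaged 1530.4 ± 31.6 CPM, with 1322 ± 158 CPM by 4 h, 1552 ± 122 CPM by 24 h and 1715 ± 171 CPM by 48 h (SD, n = 4 each). In control leaves of 2 h it averaged 1472 ± 107 CPM, with 1473 ± 101 CPM by 4 h, 1643 ± 151 CPM by 24 h and 1799.8 ± 124 CPM by 48 h (SD, n = 4 each). ABA and control libraries overlapped in this sum at each of the 4 times.

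**Figure D2:**
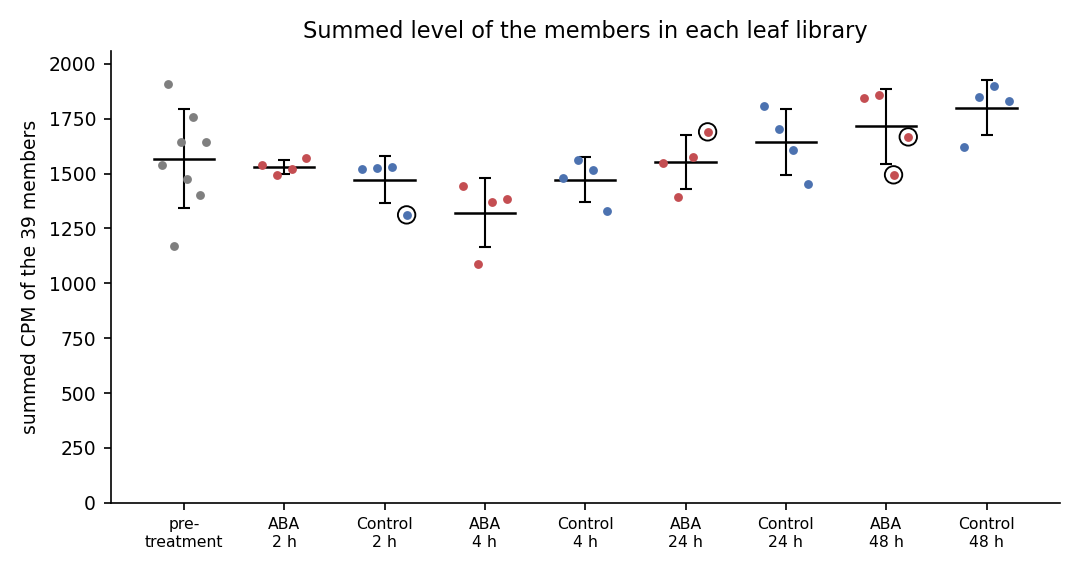
Summed CPM of the 39 members (y axis) in each of the 40 leaf libraries by group (x axis: pre-treatment in grey, then ABA in red and control in blue at each time), with the mean (line) and SD (bar) of each group and a ring around the 4 second flow cell libraries. The ABA and control libraries of each time overlap, the lowest ABA library of 4 h is at 1090 CPM, and the lowest control library of 2 h, a second flow cell library, is at 1312 CPM.

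Afternoon control leaves (2 h after the noon spray) were set against control leaves of noon the next day (24 h), groups that the rule did not use. By edgeR's quasi-likelihood test with Benjamini-Hochberg adjustment over 13378 genes, no member differed at an adjusted p under 0.05, against 0.0448% of all genes tested. Unadjusted, 5 of 39 members had p under 0.05 by edgeR, against 1208 of the 13378 genes tested, and DESeq2 also called no member. The median log2 difference of the members was −0.28, while it was 0.01 over all genes tested and −0.01 over the 8436 leaf genes that buds also hold. At 2 h 32 of 39 members were lower, against 6439 of the 13378 genes tested and 4373 of the 8436. These values describe 4 against 4 libraries in which the members share their libraries. Of the 4 control libraries of 2 h, replicate 1 ran on the second flow cell.

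All 39 members entered the test of ABA against control, in which 1 model held a mean for each of the 9 leaf groups. At 2 h no member was called by edgeR or by DESeq2, against 0.0972% of all genes tested by edgeR. Unadjusted, 4 of 39 members had p under 0.05 by edgeR, against 1035 of the 13378 genes tested. The median log2 change was 0.10, with 27 of 39 above 0, against −0.01 over all genes tested. At 4 h edgeR called no member, against 1.55% of all genes tested. An unadjusted edgeR p under 0.05 was found in 9 of 39 members and in 2032 of 13378 genes. DESeq2 called 1 member lower (Vitvi01g00555, adjusted p = 0.0445), with its share over all genes not given here. The median was −0.17, with 15 of 39 above 0, against 0.00 over all genes tested. The 4 h control libraries also entered the rule, so the 4 h values are less independent of it than the others.

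At 24 h no member was higher with ABA than in controls and 2 were lower, against 1.97% higher and 1.18% lower of all genes tested (edgeR, adjusted p under 0.05). These were Vitvi12g02542 and Vitvi06g01744. The median log2 change was −0.05, with 16 of 39 above 0, and turned to 0.0047 with the flow cell as a term in the model (1 of the 4 ABA libraries of 24 h ran on the second one). At 48 h edgeR and DESeq2 called no member, against 2.21% of all genes tested by edgeR. There, 7 of 39 members and 2167 of 13378 genes had an unadjusted edgeR p under 0.05. The median was −0.13, again with 16 of 39 above 0. It turned to 0.08 without the second flow cell, which held 2 of the 4 ABA libraries of that time, and to 0.04 with the flow cell as a term.

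**Figure D3:**
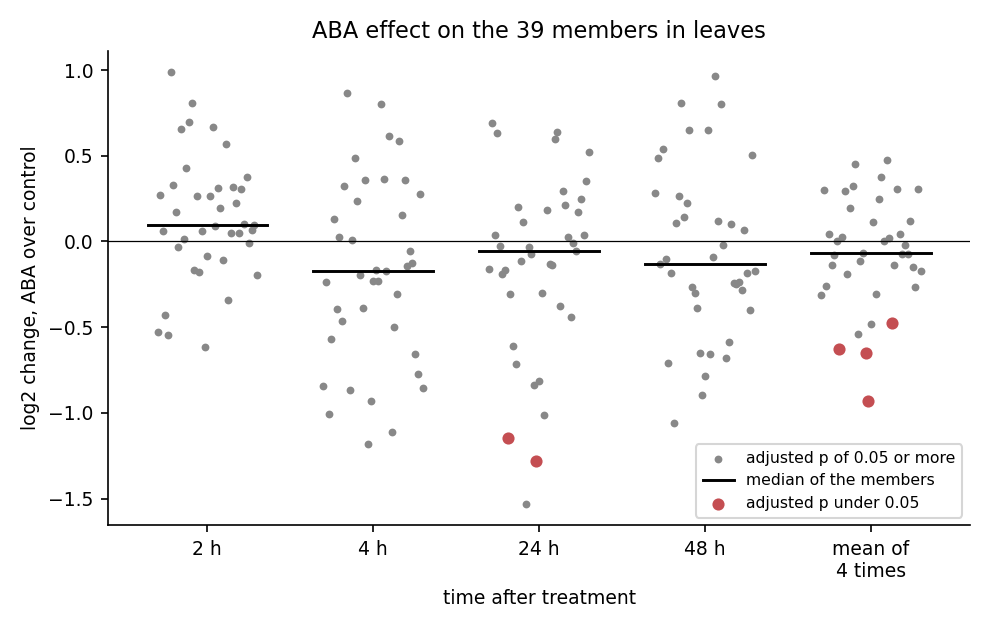
Log2 change of ABA over control leaves (y axis) for each of the 39 members at 2, 4, 24 and 48 h and for the mean of the 4 times (x axis), with called members in red and the median of the members as a line. Members scatter on both sides of 0 at every time, with medians of 0.10, −0.17, −0.05 and −0.13, and the called ones (2 at 24 h, 4 in the mean) lie below 0.

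Taken over the 4 times together, 16 ABA against 16 control libraries, 4 members were lower with ABA than in controls and none was higher. Of all genes tested, 2.96% were lower and 4.30% higher (edgeR, adjusted p under 0.05). The 8436 leaf genes that buds also hold had 3.24% lower and 4.31% higher. The 4 members were Vitvi12g02542, Vitvi06g01744, Vitvi12g00883 and Vitvi18g02715, and DESeq2 also called 4 lower, with its share over all genes not given here. The median log2 change of all members was −0.07, with 18 of 39 above 0, and turned to 0.02 with the 4 h libraries left out of the mean. Without the second flow cell 2 members were called, as without the 4 h libraries, an alternative added after seeing the data. The shares of all genes called in these 2 alternatives are not given here. A joint test of ABA effects that differ from time to time called no member by edgeR, against 0.232% of all genes tested. In it 7 of 39 members and 2073 of 13378 genes had an unadjusted p under 0.05. DESeq2's own test of this, a likelihood-ratio test on the 32 libraries after treatment, called 2 members, Vitvi03g00312 and Vitvi17g00945. Its share over all genes is not given here, so these 2 calls cannot be set against the edgeR share.

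Vitvi12g02542 lay below its controls at every time. At 2 h it had 9.83, 7.66, 9.09 and 9.56 CPM in the ABA libraries, replicates 1 to 4, and 10.2, 14.5, 14.3 and 19.7 CPM in the controls. At 4 h it had 7.51, 7.85, 8.93 and 10.2 CPM with ABA and 12.5, 20.2, 19.0 and 15.7 CPM in the controls. Every ABA library lay below every control library at both times, narrowly at 2 h.

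At 24 h Vitvi12g02542 had 12.7, 5.64, 8.76 and 6.61 CPM with ABA and 26.2, 20.0, 18.1 and 18.5 CPM in the controls. Its values at 48 h were 23.7, 15.1, 13.9 and 15.8 CPM with ABA and 30.0, 24.1, 29.4 and 42.8 CPM in the controls. The groups did not overlap at these times either, and both the ABA and the control mean were highest at 48 h. Of all genes tested, 0.0224% had each ABA library below each control library at all 4 times.

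The log2 change of Vitvi12g02542 passed at 24 h (−1.28 ± 0.34, SE, edgeR adjusted p = 0.0272). The values of 2, 4 and 48 h were −0.62 ± 0.34, −0.93 ± 0.34 and −0.90 ± 0.30 (SE), with edgeR adjusted p of 0.695, 0.158 and 0.111. Over the 4 times the change was −0.93 ± 0.17 (SE, edgeR adjusted p = 0.000224). That call held under each of the 40 alternatives run for it. The 24 h call was lost in 4 of 15, when control replicates 1 or 2 or ABA replicates 2 or 4 of 24 h were left out (edgeR adjusted p of 0.0573 to 0.0947).

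Vitvi06g01744 had 7.13, 8.14, 13.1 and 13.7 CPM with ABA at 24 h, against 26.7, 27.6, 20.0 and 19.8 CPM in the controls. The groups did not overlap, and 2 of the ABA libraries lay under 9 CPM. Its log2 change at 24 h was −1.15 ± 0.34 (SE, edgeR adjusted p = 0.0493), a call that held in 4 of 15 alternatives (adjusted p of 0.0317 to 0.165). It was lost on leaving out any 1 library of the 24 h groups. At 2 h the libraries overlapped (ABA 25.5 ± 7.15 CPM, control 23.6 ± 8.40 CPM, SD, n = 4 each). By 48 h the level was low in both groups (ABA 4.26 ± 0.702 CPM, control 8.89 ± 3.43 CPM, SD, n = 4 each), and the log2 change of −1.06 did not pass (edgeR adjusted p = 0.165). The mean over the 4 times was −0.63 ± 0.17 (SE, edgeR adjusted p = 0.0174) and lost its call without the second flow cell (0.0794).

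Vitvi12g00883 stood apart at 4 and 24 h. At 4 h it had 4.23, 2.24, 5.53 and 6.97 CPM with ABA and 10.4, 14.7, 10.9 and 8.84 CPM in the controls. At 24 h it had 5.60, 8.77, 8.76 and 9.92 CPM with ABA and 20.5, 13.4, 13.2 and 12.6 CPM in the controls. No ABA library reached a control at these times, whereas at 2 h the groups had like levels, namely 6.89 ± 2.22 CPM with ABA against 6.96 ± 0.862 CPM in the controls (SD, n = 4 each). At 48 h they overlapped, since ABA replicate 1 was at 26.5 CPM and control replicate 1 at 12.6 CPM. None of the 4 times passed alone, and the mean change was −0.65 ± 0.19 (SE, edgeR adjusted p = 0.0289). This call was lost without the 4 h libraries (0.223), without the second flow cell (0.0971) and without control replicate 1 of 24 h (0.0507).

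Vitvi18g02715, the third member in leaf level, changed less and at a higher level. Over the 16 libraries after treatment its lowest, median and highest values were 60.1, 137.1 and 177.5 CPM with ABA, and 72.7, 182.7 and 255.5 CPM in controls. The ranges overlapped at each time, and the group mean was lower with ABA at all 4 times. The mean log2 change was −0.47 ± 0.13 (SE, edgeR adjusted p = 0.0211), and no time passed alone. Without the 4 h libraries the call was lost (0.0674).

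**Figure D4:**
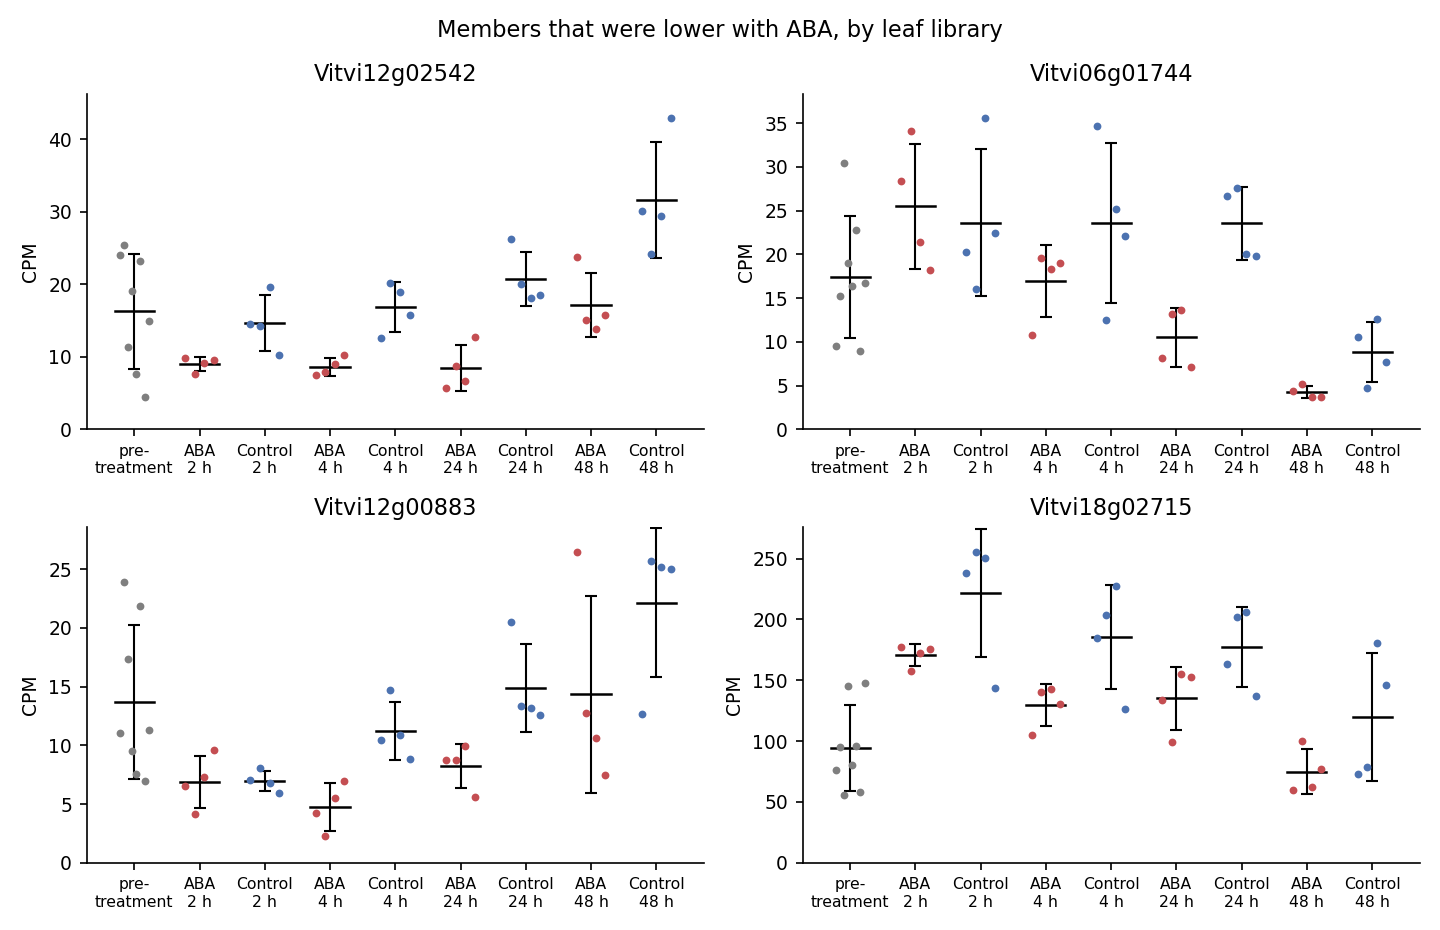
CPM (y axis, from 0) of the 4 members called lower with ABA than in controls in the mean over times. Each leaf library is shown by group (x axis: pre-treatment in grey, then ABA in red and control in blue at each time), with the mean (line) and SD (bar). For Vitvi12g02542 the ABA points lie below the control points at 2, 4, 24 and 48 h, for Vitvi06g01744 at 24 h and for Vitvi12g00883 at 4 and 24 h, and for Vitvi18g02715 they overlap at each time.

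The most abundant members were not called. Vitvi19g01014 averaged 236.5 ± 16.1 CPM in ABA leaves of 24 h, against 239.7 ± 15.2 CPM in their controls (SD, n = 4 each), and its log2 change over the 4 times was −0.02 ± 0.09 (SE, edgeR adjusted p = 0.934). Vitvi19g01015 had a change of −0.07 ± 0.09 (SE, edgeR adjusted p = 0.706).

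Counting members whose ABA and control libraries did not overlap gave few more. At 2 h 1 member was above and 2 were below, against 1.76% and 2.62% of all genes tested. At 4 h none was above and 5 were below, against 4.36% and 4.77%. At 24 h none was above and 4 were below, against 4.99% and 5.40%. At 48 h 1 was above and 1 below, against 3.53% and 3.47%. Beside the members already named, these were Vitvi05g00567 (above) and Vitvi01g00555 (below) at 2 h, Vitvi17g00945, Vitvi19g02155 and Vitvi19g01058 at 4 h, Vitvi15g01483 at 24 h and Vitvi01g00555 (above) at 48 h.

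Vitvi01g00555 was named after its values were seen, for lying on opposite sides at 2 and 48 h. It averaged 38.7 ± 2.03 CPM in ABA leaves of 2 h, against 57.4 ± 9.27 CPM in their controls (SD, n = 4 each). In ABA leaves of 48 h it averaged 90.4 ± 9.03 CPM, against 74.2 ± 4.60 CPM in the controls (SD, n = 4 each). It was not called at 2 or 48 h, nor in the test of an effect that differs between times (edgeR). Its largest log2 change was at 4 h, where the groups overlapped (−0.84 ± 0.26, SE, edgeR adjusted p = 0.0893). There it was called lower by DESeq2 (adjusted p = 0.0445) and by edgeR without control replicate 1 (adjusted p = 0.0289). The shares of all genes called in these 2 alternatives are not given here.

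Within groups, most pairs of members showed little joint variation. Over the 741 pairs of members, the correlation of their log2 deviations from the group means across the 40 leaf libraries had a median of 0.08 (−0.55 to 0.94), with 42 pairs over 0.5. The points share libraries and depth, so this is a description. A set of 5 members was chosen after these values were seen, as those chained by a correlation over 0.75: Vitvi19g01452, Vitvi19g02155, Vitvi19g01028, Vitvi19g01058 and Vitvi02g00271. Their 10 pairs had correlations of 0.58 to 0.94 (median 0.79).

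The joint variation of these 5 rested largely on 2 libraries. In 1 pre-treatment library Vitvi19g01452 stood at 2.72 CPM, against 28.3 to 64.0 CPM in the other 7, and Vitvi19g02155 at 1.09 CPM, against 25.3 to 51.1 CPM. The 5 genes summed to 61.4 CPM in that library and to 216.2 to 389.5 CPM in the other 7, while the other 34 members summed to 1109 CPM there and to 1177 to 1517 CPM in the rest. In the same library 13 of the 39 members had their lowest and 6 their highest pre-treatment value. Without it and without ABA 4 h replicate 2, the 10 correlations were 0.12 to 0.80 (median 0.48), against a median of 0.06 over all pairs. The libraries left had also served to choose the 5, so the higher median follows at least in part from that choice and is no test.

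At 4 h the 5 genes together had 145.1, 56.6, 116.9 and 140.4 CPM in the ABA libraries, replicates 1 to 4, and 179.0, 224.6, 207.3 and 149.2 CPM in the controls. The groups did not overlap, with replicate 4 of the controls close above replicate 1 of ABA. None of the 5 was called at 4 h, and their log2 changes ran from −1.01 to −0.13 (edgeR adjusted p of 0.145 to 0.897). The choice of the set on these libraries allows no test of its sum.

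**Figure D5:**
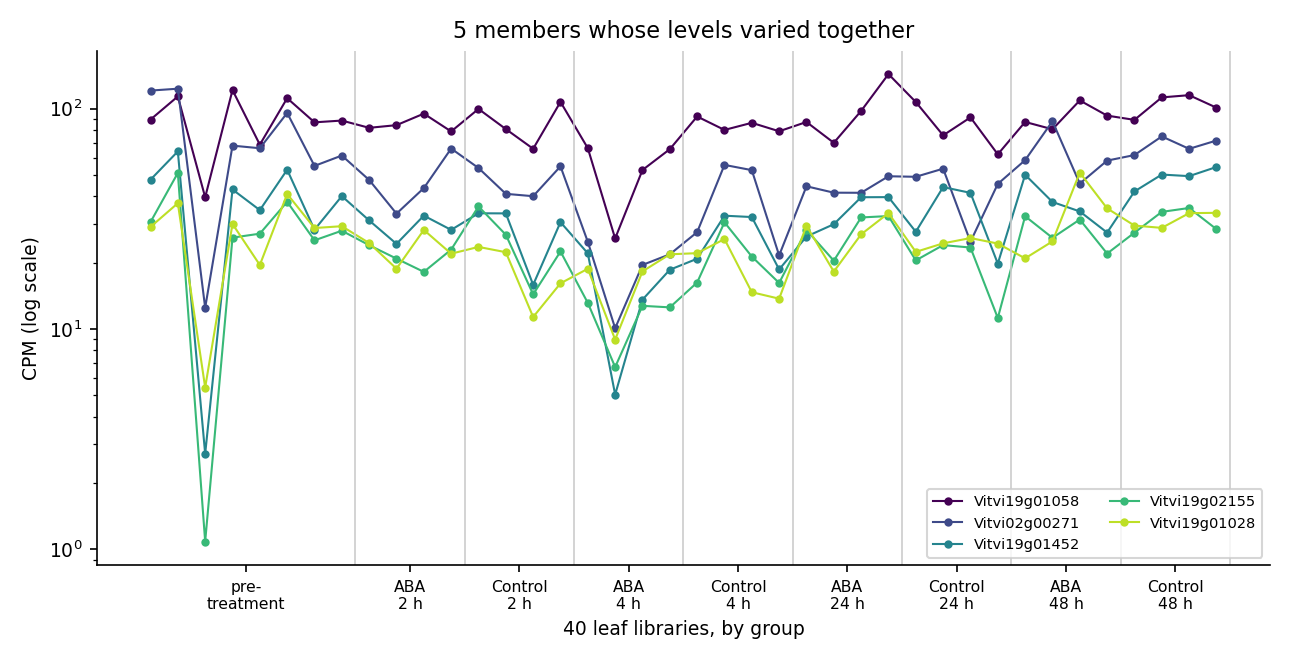
CPM (y axis, log scale) of 5 members in each of the 40 leaf libraries, ordered by group (x axis). All 5 are low in 1 pre-treatment library, where Vitvi19g02155 is at 1.09 CPM, and in ABA 4 h replicate 2.

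The identifiers of the members were unevenly spread. Of the 39, 9 carry the number 19 after the letters, 23.1% of them, against 4.06% of the 8475 steady leaf genes and 5.35% of all genes counted. In all, 18 of the 20 such numbers occurred among the members. Identifiers close in number, within a window of 50, occurred in runs, with 4 members numbered 1678 to 1726 under 10 and 4 numbered 1014 to 1058 under 19. How often other leaf genes fall in such runs is not given here. No position was read from these numbers, since no annotation that holds them was used here. The 2 most abundant members, Vitvi19g01014 and Vitvi19g01015, are adjacent in number, and their log2 deviations from the group means had r = 0.58 across the 40 leaf libraries. For Vitvi10g01678 and Vitvi10g01679 it was 0.59. The sources used here do not say how tags that match several near-identical copies were counted, nor on which strand, so the levels of such neighbours are uncertain where they are copies of each other.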

How the data were processed

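Messenger RNA 3′ ends were sequenced with the QuantSeq kit on a NextSeq500, per the labels' protocols. The authors deposited unnormalized counts by gene, with 40 leaf columns in one table and 34 bud columns in another. FastQC, STAR and DESeq2 are named, without roles, per the submitters' processing notes. Build, annotation and counting settings: not given in the sources used here. Columns were matched to samples by header and title. The pre-treatment leaf columns carry 4 header names used 2 times each and were used as a group only. Buds called 72 h here carry that time in their titles and the code 75 in their descriptions.

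The members and lists were chosen with earlier results of these data known. Tests were made with edgeR 4.0.16 (quasi-likelihood, TMM scaling, filterByExpr with a minimum count of 10, R 4.3.3) on the 40 leaf libraries. Each of the 9 groups had its own mean, with 31 residual degrees of freedom, and a gene was called when its p, adjusted by Benjamini-Hochberg over all 13378 genes, was under 0.05. The tested genes held 99.4% of the leaf counts, and the common biological coefficient of variation was 0.239. The median SE of a log2 change at one time was 0.34 to 0.36 in the members, against 0.27 to 0.28 over all tested genes. CPM values use the column totals. Means are given with SD, and intervals of summed counts are exact Poisson ones at 95%, covering counting error only.

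Same-numbered ABA and control libraries of a time did not deviate together (r of −0.25 to 0.23 over 16 pairs, 4 over 0.1), so the numbers were not treated as pairs. Alternatives were DESeq2 1.42.0, RLE size factors, no count filter, only the compared groups in the model, no second flow cell or a term for it, the replicate number as a block, other limits of the rule and each library left out. Named members are, per comparison of ABA and control, at most the 2 with the largest log2 change in each direction among the called, without repeats, and the 2 highest in leaves. The others named were chosen after their values were seen.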

Additional observations from a re-analysis of the deposited data

Results flagged for a closer look

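In each leaf group, the summed level of the members and the levels of 6 named members were checked for a library far from the rest of its group, 63 checks in all, of which 5 were flagged. Chance flags about 1 in 20. In the 2 h controls, the summed level of replicate 1 was 1312 CPM, with the nearest other library at 1522 CPM. Vitvi18g02715 in the same library stood at 143.9 CPM, with the nearest at 238.5 CPM. This library was sequenced on the second flow cell, and without that flow cell Vitvi18g02715 kept its call in the mean over times. Vitvi06g01744 in ABA 4 h replicate 1 stood at 10.8 CPM, with the nearest at 18.3 CPM. Vitvi12g00883 was high in control 24 h replicate 1, at 20.5 CPM with the nearest at 13.4 CPM, and low in control 48 h replicate 1, at 12.6 CPM with the nearest at 25.0 CPM.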

How the results depend on the processing

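Of 339 alternative values for the counts of calls, the medians and the number of members, 302 stayed near the reported value and 37 moved. A count was near when it stayed within a set ratio of the reported one, and a count of 0 had to stay 0. A median was near when it shifted by less than 0.134 log2, the spread of the members' median deviation between libraries of a group. A small median could thus change sign and still count as near, so this tally does not show that signs were stable. The number of members was 22 with a bud limit of 0.1 CPM, 71 with 0.5 CPM, 21 with a leaf minimum of 20 CPM and 64 with 5 CPM. The ABA call at 4 h (0) was 1 with a bud limit of 0.5 CPM, without the condition on the 4 h controls and by DESeq2. The 24 h count (2) was 1 with a bud limit of 0.1 CPM, with only the compared groups, without the second flow cell and with it as a term, and 0 with a leaf minimum of 20 CPM. The 48 h count (0) was 1 with a bud limit of 0.5 CPM and 2 with a leaf minimum of 5 CPM, and its median of −0.13 was 0.082 without the second flow cell and 0.041 with the flow cell as a term. The 24 h median of −0.05 was 0.0047 with that term, and the median over the 4 times (−0.07) was 0.018 without the 4 h libraries. The count over the 4 times (4) was 2 with a bud limit of 0.1 CPM, without the 4 h libraries and without the second flow cell, 1 with a leaf minimum of 20 CPM and 7 with 5 CPM. The count for an effect that differs between times (0) was 2 by DESeq2. Each limit changes which genes are counted. For the other settings the cause was not tested, and the share of all genes called under them is not given here.

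The replicate number as a block gave 1 call at 4 h (Vitvi17g00945), 1 at 48 h (Vitvi12g02542) and 1 in the test of a differing effect (Vitvi17g00945), and changed no other count. The share of all genes called under this model is not given here, so these calls cannot be set against it. In the check of whether same-numbered libraries deviate together, 11 of 32 libraries correlated best, on average, with libraries of their own number in other groups.

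With each library left out in turn, the counts were 0 at 2 h, 0 to 1 at 4 h (1 without control replicate 1), 0 to 1 at 24 h (0 without control replicates 1 or 2 or ABA replicates 2 or 4), 0 to 3 at 48 h (3 without ABA replicate 1: Vitvi12g02542, Vitvi12g00883 and Vitvi13g01358), 3 to 5 over the 4 times, 0 to 1 for a differing effect (1 without control 4 h replicate 1 or ABA 48 h replicate 1, Vitvi03g00312) and 0 between control times. The medians ran from 0.078 to 0.19 at 2 h, −0.25 to −0.11 at 4 h, −0.15 to −0.00032 at 24 h, −0.18 to −0.016 at 48 h, −0.083 to −0.011 over the 4 times and −0.35 to −0.21 between control times. The shares of all genes called with a library left out are not given here. Of 190 alternatives for the named log2 changes, 0 reversed. Bud levels of single members rest on 0 to 14 counts in all.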
